A study of Homo sapiens with 2 samples.

Results

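Mitochondrial ribosomal proteins (MRPs) were followed in CL1-0, a human lung adenocarcinoma cell line, at 0 h and at 6 h of exposure to an antibody against the secreted glycoprotein FSTL1. The members were taken by name, as probe sets annotated to a single gene whose symbol begins with MRPL or MRPS and a number. This gave 142 of 54675 probe sets, for 77 of 19775 genes with a probe set of their own. Of these, 75 genes encode proteins, 48 of them named for the large subunit and 27 for the small one, and these 75 are described below. The other 2 were the antisense RNA gene MRPL20-AS1 and the pseudogene MRPL45P2. MRPL53 and MRPS24 had only probe sets annotated to several genes and were not analysed here.

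The study compared 2 RNA samples, each on 1 Affymetrix array, labelled as FSTL1 antibody for 0 hours and for 6 hours. Both groups carried the same treatment label, and per the labels' protocols all cells came from puromycin selection and had been stably transduced with something that is not named. Cells kept for 6 h without the antibody were not analysed here, so time in culture and the antibody cannot be told apart. With 1 array at each time there was no spread between replicates and no test, and every difference below is a description of these 2 arrays.

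Mitochondrial ribosomes translate the respiratory chain proteins encoded by mitochondrial DNA. Their RNAs come from that DNA, while all their proteins are encoded in the nucleus, made in the cytosol and imported. Many of the proteins have a bacterial counterpart, and others are specific to mitochondria and cover surfaces where bacterial ribosomes have RNA. The genes are active in most tissues and their promoters are known for sites of NRF1, of ETS family factors such as GABP, and of YY1.

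The arrays had median intensities of 45.8 (0 h) and 44.9 (6 h). The mean without the extreme 2% at each end was 256.4 and 262.1. The 3′ to 5′ ratio, a sign of RNA integrity, of GAPDH was 1.14 at 0 h and 1.12 at 6 h, and that of ACTB was 1.68 and then 1.72. The labels call the cells type II alveolar. Of 11 markers of that cell type 6 had a measured probe set. Their highest values at 0 h and 6 h were 202.1 and 381.5 for ETV5 and 173.4 and 207.9 for ABCA3. Those of NKX2-1 were 64.8 and 68.6, and those of NAPSA 51.1 and 61.0. The surfactant protein genes SFTPB and SFTPC reached 132.7 and 113.3 at most. SFTPA1 and SFTPA2 had no probe set of their own, and SFTPD, LAMP3 and SLC34A2 were below the floor on both arrays. Of 5 epithelial markers, EPCAM, CDH1 and KRT19 were also below it, while KRT18 (148.2 and 120.9) and KRT8 (48.1 and 52.4) were measured. Each of the leukocyte markers that had a probe set was below the floor on both arrays. Of 5 fibroblast markers 2 were measured, COL1A1 (230.1 and 215.6) and DCN (50.5 and 41.1). Of 5 endothelial markers PECAM1 alone was measured (73.5 and 54.5). The floor was an intensity of 45.4, the 50th percentile of the pooled values, and a measured probe set is one that exceeded this floor at 1 time at least. The MRP genes lay far above it: all 75 were measured at both times on their brightest probe set, so no value in the comparison of genes is a bound.

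Most MRP genes had lower values at 6 h, each by a small amount. On the brightest probe set of each gene, 64 of 75 were lower at 6 h and 11 were higher, where 45.7% of all 12669 measured genes were lower and 54.3% higher. The median log2 difference of the members, 6 h minus 0 h, was -0.12, which is 7.97% lower, with an interquartile range from -0.20 to -0.05. Over all measured genes the median was 0.017. In RNA from whole cultures, fewer cells with a transcript and less of it per cell cannot be told apart. Among the 6569 other genes in the same range of brightness, 41.9% were lower and the median was 0.030. The differences of the members ran from -0.34 to 0.15, with an SD of 0.11 across genes. The set was proposed with results of these arrays in view, and the 3 genes that lead it, MRPL55, MRPS16 and MRPL12, are those with the lowest values.

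Few members passed 1.2-fold. At that size 5 members were lower, or 6.67% of the 75, where 5.29% of all measured genes were lower by as much. Among the 6569 other genes in the same range of brightness that share was 2.28%. The members' share was thus close to that of all genes and above that of genes of like brightness, with 5 genes behind it. No member was higher by 1.2-fold, against 9.9% of all measured genes. At 1.5-fold 0 members were lower or higher, against 0.182% and 0.75% of all genes. Most members thus differed in 1 direction, by less than 1.2-fold.

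**Figure D1:**
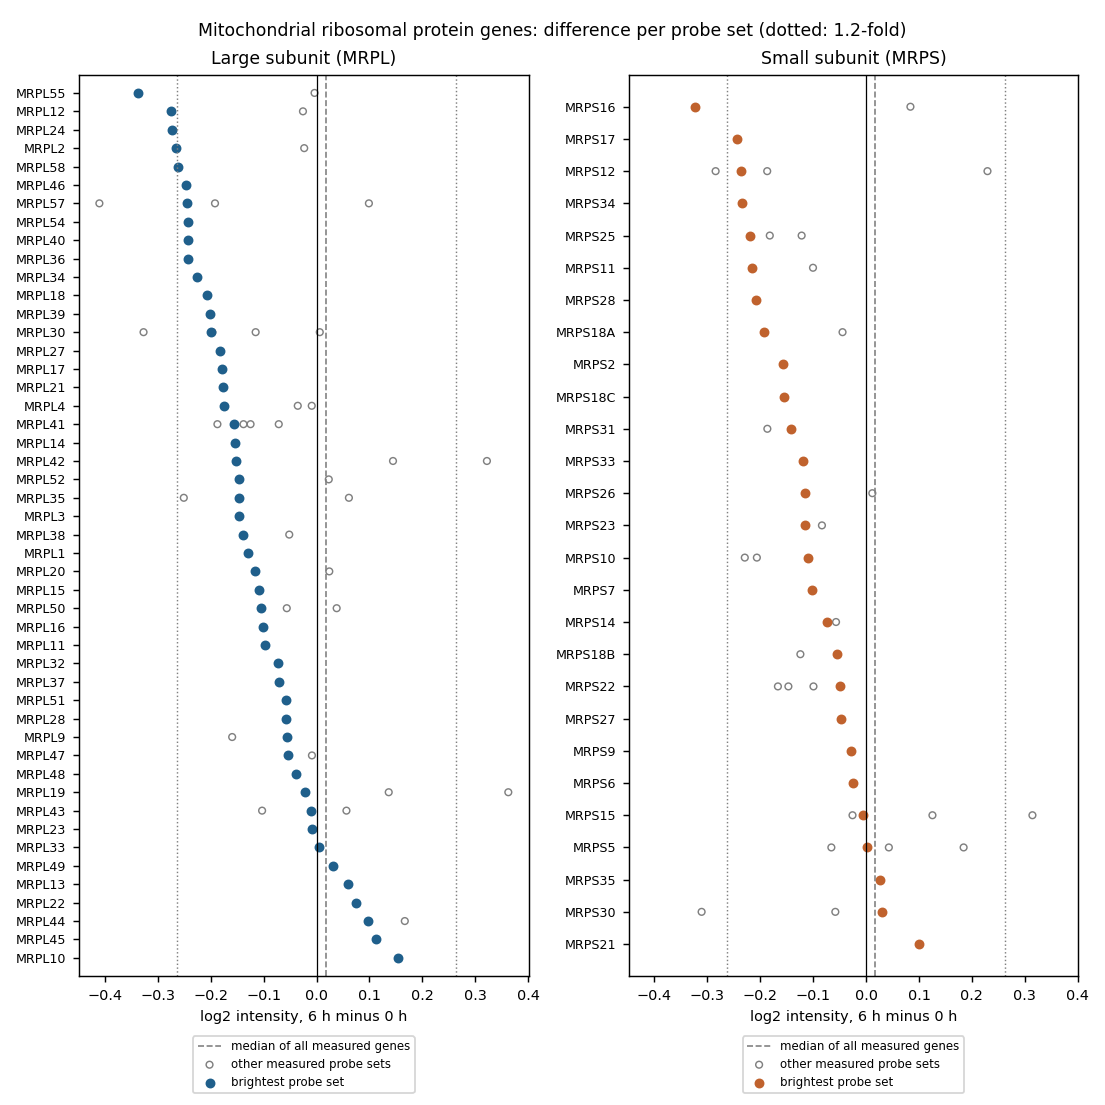
Log2 intensity at 6 h minus 0 h for the 48 large subunit genes (left) and the 27 small subunit genes (right). Filled points are the brightest probe set of a gene and open points its other measured sets, the dashed line is the median of all measured genes and dotted lines mark 1.2-fold. The filled points of 64 genes lie left of 0, and open points scatter widely on the same lines.

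Among proteins of the large subunit, 41 of 48 were lower, 7 were higher and the median was -0.14. MRPL55, the counterpart of a bacterial protein at the contact between the subunits, went from an intensity of 1373 at 0 h to 1086 at 6 h, a log2 difference of -0.34. MRPL12, the stalk protein that helps recruit translation factors, went from 4147 to 3427 (-0.27). MRPL24, which lies near the exit of the nascent chain, went from 927.1 to 767.1 (-0.27). MRPL2, a core protein close to the site of peptide bond formation, went from 334.8 to 278.4 (-0.27). These 4 and MRPS16 made up the 5 past 1.2-fold. MRPL58, a peptidyl-tRNA hydrolase built into the ribosome, lay just short of it, from 1971 to 1644 (-0.26).

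The 7 large subunit genes that were not lower were spread from 0.005 to 0.15. MRPL10, which holds MRPL12 on the ribosome, was the highest of all members, from 1820 to 2025, a log2 difference of 0.15. The stalk protein and its anchor thus went opposite ways on the probe sets used. MRPL45, which ties the ribosome to the inner membrane, went from 1498 to 1618 (0.11), MRPL44 from 676.8 to 723.8 (0.10), and MRPL22, of the exit tunnel wall, from 2324 to 2448 (0.07). MRPL13 went from 2327 to 2427 (0.06). MRPL45 has related pseudogenes, and what its probes share with them was not tested.

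The 5 members of this subunit with the most intense probe sets, named by rule, had differences from -0.16 to -0.05. MRPL3 went from 8192 to 7405 (-0.15), MRPL41 from 7308 to 6556 (-0.16) and MRPL20 from 6965 to 6428 (-0.12). MRPL47 went from 5996 to 5778 (-0.05) and MRPL51 from 5310 to 5104 (-0.06). All 5 were lower at 6 h and 0 of them passed 1.2-fold.

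Among proteins of the small subunit, 23 of 27 were lower, 4 were higher and the median was -0.11. MRPS16, the counterpart of bacterial S16 in the body of the subunit, went from 2017 to 1611, a log2 difference of -0.32. MRPS17, also in the body, went from 2393 to 2022 (-0.24). MRPS12, of the decoding centre, went from 4165 to 3538 (-0.24). The mitochondria-specific MRPS34 went from 1575 to 1339 (-0.23) and MRPS25 from 1518 to 1303 (-0.22). These were the 5 lowest of the subunit, and MRPS16 alone passed 1.2-fold.

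At the other end MRPS21 went from 4336 to 4649 (0.10), MRPS30 from 2821 to 2881 (0.03) and MRPS35 from 3133 to 3189 (0.03). The other 2 sets of MRPS30 were lower, at -0.06 and -0.31, so that its direction turned with the median of its sets (-0.06). MRPS5, which lines the path of the mRNA, was at 2760 and 2763 (0.002), and its sign turned under centring (-0.016), quantile normalization (-0.020) and loess (-0.016). MRPS15 was level on its brightest probe set, at 6190 and 6164 (-0.006). MRPS18B went from 4843 to 4664 (-0.05) and MRPS23 from 3947 to 3645 (-0.11).

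**Figure D2:**
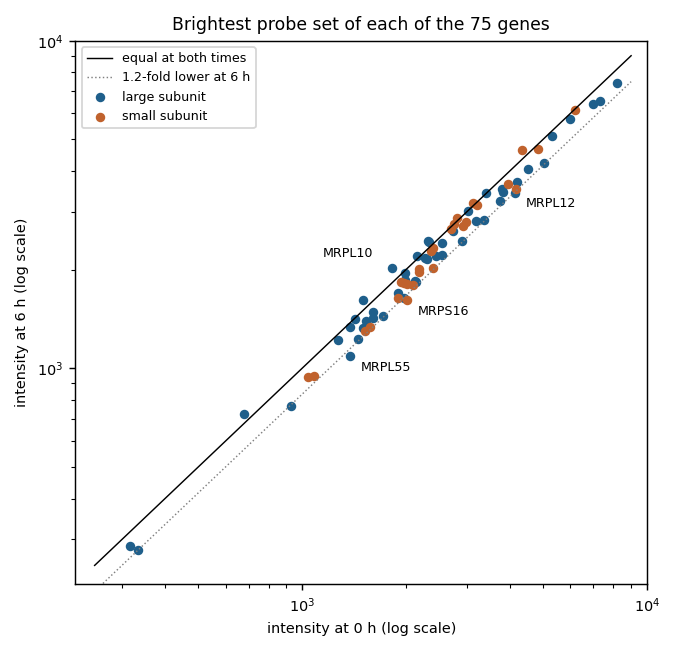
Intensity at 6 h against intensity at 0 h, both on log axes, for the brightest probe set of each MRP gene, with large subunit genes in blue and small subunit genes in orange. Most points lie between the line of equality and the dotted line of 1.2-fold lower, MRPL55, MRPS16 and MRPL12 lie beyond it, and MRPL10 lies above equality.

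The values of the subunits overlapped. The median of the large subunit was lower than that of the small one by 0.03 on the log2 scale (-0.14 against -0.11), and 85.4% and 85.2% of their genes were lower. The ranges overlapped almost fully, from -0.34 to 0.15 and from -0.32 to 0.10. MRPS30 and MRPS18A carry small subunit names but sit in the large subunit of the known structure, and with both counted there the medians stayed -0.14 and -0.11. When each gene was read as the median over its sets and not from the brightest one, the difference had the opposite sign (0.014). Values by descent also overlapped. The 47 proteins with a bacterial counterpart had a median of -0.13, with 41 lower, and the 28 specific to mitochondria had one of -0.12, with 23 lower.

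Some of the proteins were also grouped by place in the ribosome, in groups drawn up after the values were known and therefore given as a description. Many members were left unplaced, so a count such as 8 of 8 covers the genes listed and not all proteins of that place. The central protuberance, where the large subunit meets transfer RNA and the small subunit, had 8 of 8 genes lower, from -0.34 to -0.04, with a median of -0.22. Besides MRPL55 and MRPL58 these were MRPL46 (1455 to 1227, -0.25), MRPL40 (2901 to 2452, -0.24), MRPL18 (-0.21), MRPL27 (-0.18), MRPL38 (-0.14) and MRPL48 (-0.04). Around the exit tunnel 5 of 8 were lower, with a median of -0.03 and a range from -0.27 for MRPL24 to 0.11 for MRPL45. The stalks had 3 of 4 lower, with MRPL1 at -0.13, MRPL11 at -0.10, and MRPL12 and MRPL10 as given above.

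In the small subunit only proteins with a bacterial counterpart were placed. The 10 specific to mitochondria, 8 of them lower with a median of -0.11, are in no group. Among the genes placed, the body held the lowest values, with 3 of 4 lower, a median of -0.24, and MRPS5 as the exception. The 4 genes placed in the head were all lower within a narrow range, MRPS10 at -0.11, MRPS7 at -0.10, MRPS14 at -0.07 and MRPS9 at -0.03. The platform had 4 of 5 lower with a median of -0.02, from MRPS11 (2091 to 1801, -0.22) to MRPS21. With 4 to 8 genes in a group and 1 array at each time, these medians carry no error that could be set against each other.

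**Figure D3:**
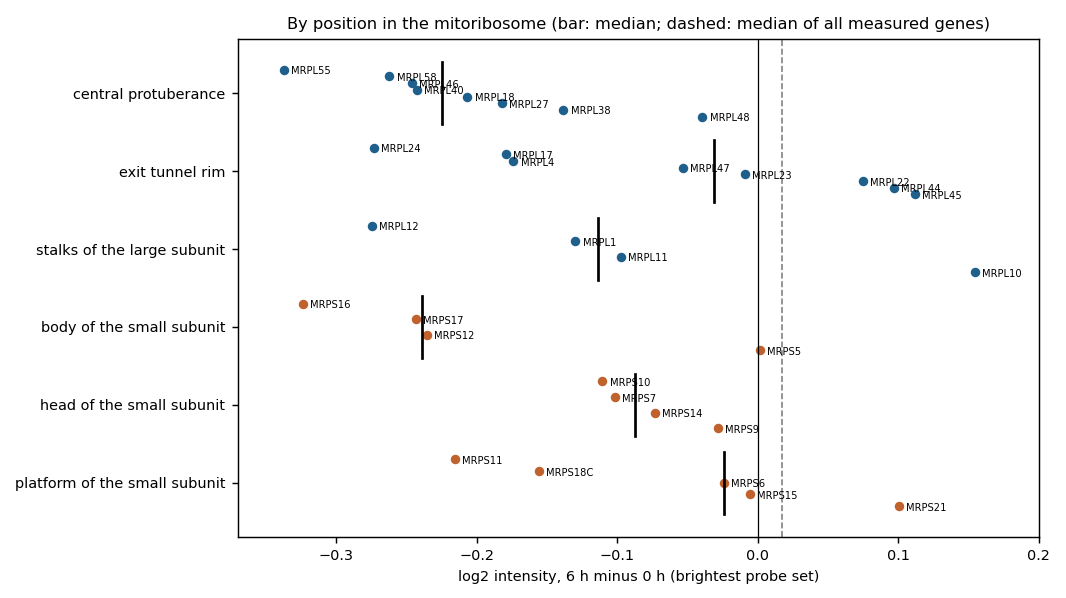
Log2 intensity at 6 h minus 0 h on the brightest probe set of the genes placed in 6 regions of the ribosome, large subunit in blue and small subunit in orange, with the median of each region as a bar. Many members are in no region. All 8 genes placed in the central protuberance lie below 0, and those placed at the exit tunnel rim lie on both sides.

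Probe sets of a gene measure the same RNA on the same array and are not replicates, but they show how far a value rests on 1 set. The 75 genes had 140 probe sets, of which 133 were measured, 103 of them lower at 6 h and 30 higher. In 33 genes at least 1 other set was measured beside the brightest. All sets of the gene were lower in 17 of these 33 (51.5%), against 20.9% of 6122 genes with several sets in all. All were higher in 1, MRPL44, named with its values above, and in 15 the sets lay on both sides of 0.

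At the median the other sets were less negative than the brightest. Of 58 other measured sets, 39 were lower, 19 were higher and the median was -0.06, where 44.5% of the other sets of all genes were lower. Their difference from the brightest set of the gene had a median of 0.06 and an SD of 0.17, and 40 of 58 lay above it. Over all genes the same median was -0.014. The 26 other sets with a mean intensity of 500 or more had a median of -0.11, with 19 lower. The 32 dimmer ones had a median of -0.03, with 20 lower. Dim sets are nearer to the background that MAS5 subtracts, and its part in these less negative medians was not tested.

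For the 3 genes that lead the family the other set did not show the same size. The second set of MRPS16 went from 1345 to 1425, a log2 difference of 0.08, while its brightest was at -0.32. That of MRPL12 was at 114.9 and 112.8 (-0.03), and that of MRPL55 at 67.0 and 66.8 (-0.004), both far dimmer than the brightest set. The differences of these genes therefore rest on 1 probe set each. MRPL24 has a single set, and the other set of MRPL2 was at 229.0 and 225.3 (-0.02).

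The widest disagreement was in MRPS12, whose 4 sets ran from -0.28 (67.2 to 55.2) to 0.23 (206.9 to 242.6), both far dimmer than its brightest. MRPL57 had 4 sets from -0.41 to 0.10, MRPL42 had 3 from -0.15 to 0.32, and MRPL19 had 3 from -0.02 to 0.36. The -0.41 of MRPL57 (101.6 to 76.4) and the 0.36 of MRPL19 (127.4 to 163.8) were on dim sets too. The 0.32 of MRPL42 was on a brighter one (373.4 to 466.8). By contrast the 5 sets of MRPL41 were all lower (-0.19 to -0.07), as were the 4 of MRPS22 (-0.17 to -0.05), the 3 of MRPS25 (-0.22 to -0.12) and the 3 of MRPS10 (-0.23 to -0.11). Some of the MRPL41 sets were dim (98.8, 97.7 and 56.6 at 0 h), and every MRPS22 set ends in _x_at, an ending explained below. MRPL41, MRPS22 and MRPS10 were chosen after their values were seen.

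**Figure D4:**
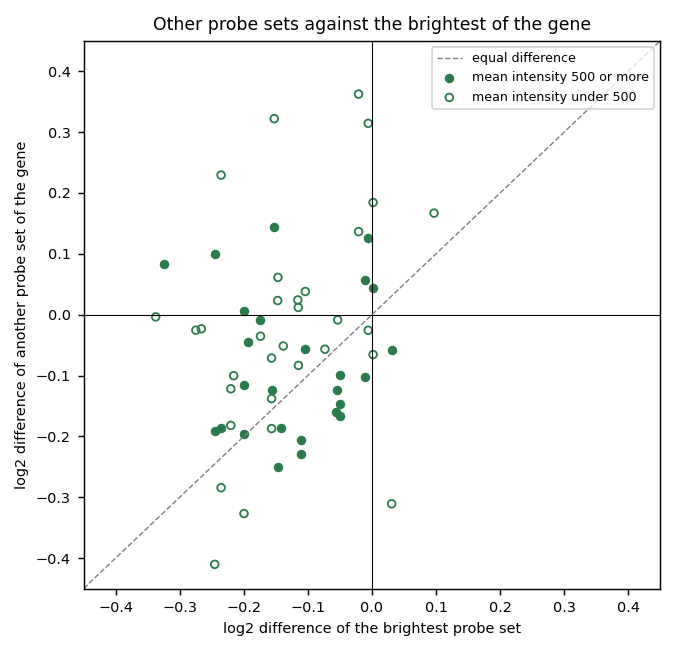
Log2 difference of each of the 58 other measured probe sets against that of the brightest set of its gene, filled where the mean intensity is 500 or more and open where it is lower. The dashed line marks equal differences, most points lie left of 0, and 40 of 58 lie above the dashed line.

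Many sets of this family end in _s_at, which marks probes shared by several transcripts, or in _x_at, which marks probes that may bind other sequences. The brightest set was of these kinds in 45 of 75 genes. Genes whose brightest set has neither ending numbered 30, with 24 lower and a median of -0.11. Those with _s_at numbered 42, with 37 lower and a median of -0.15, and those with _x_at numbered 3, all lower. When all such sets were left out, 42 genes remained, with 31 lower and a median of -0.06. Of these 42 genes 30 kept their brightest set and 12 were read from a dimmer one.

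The rest of the mitochondrial translation apparatus, in lists made with results of these arrays known, lay nearer to the median of all genes (0.017) than the members did on the brightest sets. Without _x_at and _s_at sets this did not hold for each list, as given below. Of 5 mitoribosomal proteins that carry other symbols 4 were measured, 3 lower and 1 higher, with a median of -0.04. They were CHCHD1 (3185 to 2825, -0.17), GADD45GIP1 (2293 to 2168, -0.08), DAP3 (-0.007) and PTCD3 (0.007). Of 25 measured assembly factors 17 were lower, with a median of -0.03. The lowest were the ribosomal RNA methyltransferase MRM1 (241.0 to 174.0, -0.47) and the methyltransferase NSUN4 (254.8 to 201.1, -0.34). FASTKD2, an RNA-binding protein of mitochondria, was at -0.25 and METTL15 at 0.22.

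Mitochondrial translation factors were lower in 9 of 13, with a median of -0.02. TACO1, an activator of COX1 translation, went from 1038 to 851.2 (-0.29), and the release factor family members MTRFR and MTRF1L were at 0.20 and 0.14. The initiation factor MTIF3 was at -0.11. Mitochondrial tRNA synthetases were lower in 10 of 15, with a median of -0.07, led by AARS2 (611.4 to 458.1, -0.42), EARS2 (-0.23), MARS2 (-0.22) and SARS2 (-0.19). Genes of mitochondrial transcription and RNA processing were lower in 12 of 19, with a median of -0.04 (0.002 over the 14 measured without _x_at and _s_at sets). MTERF1, a dim set near the floor, was at -0.42, the elongation factor TEFM at -0.21, GRSF1 at -0.17 and PNPT1 at -0.16.

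Among regulators of mitochondrial genes 3 of 9 were lower, with a median of 0.03, which turned to -0.016 under quantile normalization and -0.021 under loess, and was 0.14 over the 6 measured without _x_at and _s_at sets. GABPB1, a subunit of the ETS factor GABP, went from 599.4 to 487.8 (-0.30), and PPRC1, a coactivator of the PGC-1 family, was at -0.12. The nuclear receptor ESRRA was at 0.15 and the coactivator PPARGC1B at 0.13. For comparison, 38 of 70 nuclear respiratory chain subunits were lower, with a median of -0.004. Cytosolic ribosomal proteins were lower in 21 of 51, with a median of 0.004 and an SD of 0.037 across genes. Most of them were brighter than the brightest member, MRPL3 (8192 at 0 h), and the part of brightness in their small spread was not tested. RPLP2 (55.0 to 57.8) and RPL27A (162.5 to 159.0) were read from dim sets. On the brightest sets the members had the lowest median of these lists, and no test of that order was possible. The order turned without _x_at and _s_at sets, where the median of the members was -0.055, that of the tRNA synthetases -0.067, that of the mitoribosomal proteins with other symbols -0.061, and that of all genes 0.023.

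**Figure D5:**
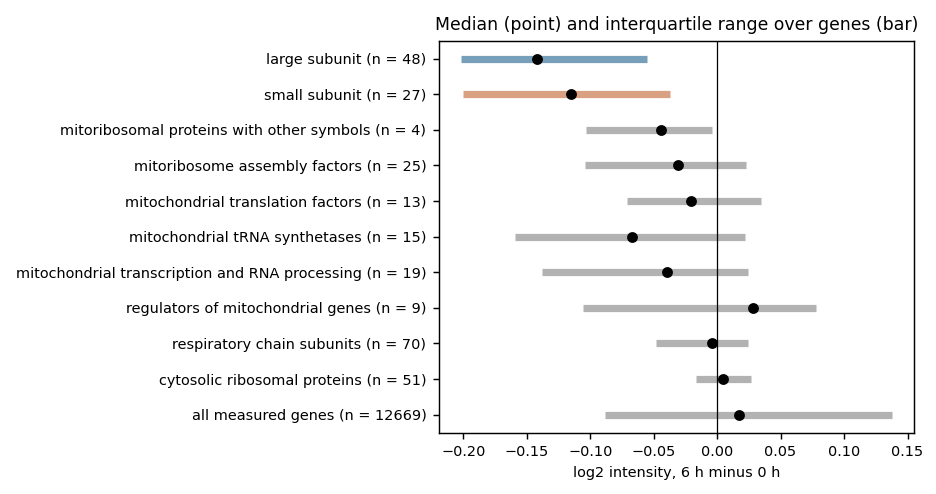
Median (point) and interquartile range over genes (bar) of the log2 intensity at 6 h minus 0 h for each list, with the number of measured genes. The 2 subunits have medians of -0.14 and -0.11, and the other lists lie between -0.07 and 0.03.

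Promoters of the family were searched for motifs, which the choice of members did not use. The RefSeq promoter table, build GRCh38.p14, held 67 of the 75 genes, each taken from 250 bases before to 50 after its first listed start, and 15842 promoters of protein-coding genes in all. Matches were sought on both strands. The ETS motif CCGGAAG was found in 28 of 67 MRP promoters (41.8%), against 14.2% of all and 19.2% of the 9666 whose gene was measured. The YY1 motif AAGATGGC was found in 19 (28.4%), against 3.91% of all and 5.44% of measured genes. The NRF1 motif GCGCANGCG, where N is any base, was found in 13 (19.4%), against 1745 of the 15842 in all and 1451 of the 9666 measured genes. The motifs were chosen after the values were seen, and NRF1 was first sought in a form longer by 1 base, a C at its 3′ end. That form was in 8 of 67 MRP promoters (11.9%), against 8.57% of all and 11.9% of measured genes, so the share of members was no higher than that of measured genes, and 7 of the 8 were lower with a median of -0.17. Both the ETS and the YY1 motif were in 8 MRP promoters, with 0 overlapping matches of the 2, and 22 MRP promoters held none of the 3, or 24 with the longer NRF1 form.

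Members were mostly lower with or without a motif. The 28 genes with the ETS motif had a median log2 difference of -0.13, with 26 lower, and the 39 without it one of -0.10, with 32 lower. With the YY1 motif the median was -0.10, with 16 of 19 lower, and without it -0.14, with 42 of 48 lower. With the NRF1 motif it was -0.12, with 10 of 13 lower, and without it -0.12, with 48 of 54 lower. Over all measured genes with a promoter the median was 0.002 with the ETS motif, 0.024 with that of YY1 and 0.022 with that of NRF1.

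The promoters below are shown for the member with the lowest difference that holds each motif, NRF1 in MRPL57, ETS in MRPS16 and YY1 in MRPL46, and for MRPL45, the highest with an entry in the table. They are written 5′ to 3′ along the gene, with the motif matches in capitals. MRPL45, which was higher at 6 h, holds both an NRF1 and a YY1 match, and the match in MRPS16 is on the opposite strand.
MRPL57, chr13:21176408-21176707, plus strand: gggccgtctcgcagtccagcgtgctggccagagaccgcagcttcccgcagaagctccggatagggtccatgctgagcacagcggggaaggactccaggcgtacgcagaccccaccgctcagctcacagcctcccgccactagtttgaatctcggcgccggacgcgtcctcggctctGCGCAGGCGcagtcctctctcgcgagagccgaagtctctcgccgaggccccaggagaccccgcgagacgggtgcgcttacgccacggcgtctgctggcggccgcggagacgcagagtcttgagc
MRPS16, chr10:73252595-73252894, minus strand: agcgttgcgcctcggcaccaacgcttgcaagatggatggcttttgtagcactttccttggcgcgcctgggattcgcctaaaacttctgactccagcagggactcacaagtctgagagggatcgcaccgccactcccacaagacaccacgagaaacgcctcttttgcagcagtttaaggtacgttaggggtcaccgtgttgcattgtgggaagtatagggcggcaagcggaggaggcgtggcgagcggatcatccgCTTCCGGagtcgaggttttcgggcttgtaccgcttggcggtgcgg
MRPL46, chr15:88467339-88467638, minus strand: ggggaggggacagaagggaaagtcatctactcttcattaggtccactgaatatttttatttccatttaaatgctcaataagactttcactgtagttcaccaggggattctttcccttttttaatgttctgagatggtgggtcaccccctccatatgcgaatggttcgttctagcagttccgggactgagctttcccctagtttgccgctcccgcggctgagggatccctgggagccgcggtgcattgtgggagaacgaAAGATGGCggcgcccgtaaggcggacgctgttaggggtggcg
MRPL45, chr17:38296918-38297217, plus strand: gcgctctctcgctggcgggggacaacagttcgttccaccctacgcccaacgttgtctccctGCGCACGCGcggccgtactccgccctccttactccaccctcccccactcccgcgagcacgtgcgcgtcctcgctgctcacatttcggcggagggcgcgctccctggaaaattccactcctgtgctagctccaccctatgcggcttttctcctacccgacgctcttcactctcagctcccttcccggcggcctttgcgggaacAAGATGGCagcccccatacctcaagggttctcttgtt

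Some MRP genes start close to a gene that runs the other way, so that both may share a promoter. Among the 67 MRP genes that the promoter table holds, 20 had a protein-coding neighbour on the opposite strand starting within 1000 bases upstream. The share of all genes with such a neighbour was not counted, so whether 20 is many cannot be said. One such pair lies inside the family, MRPL46 (-0.25) and MRPS11 (-0.22), which start 320 bases apart and were both lower. Of the neighbours outside the family 17 were measured, with 7 lower, 10 higher and a median of 0.08, where 45.7% of all measured genes were lower. The MRP genes facing them were lower in 16 of 17, with a median of -0.15, beside 64 of 75 lower among all members.

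Single pairs went either way. SARS2, the mitochondrial seryl-tRNA synthetase across from MRPS12, was lower with it (287.4 to 252.6, -0.19, beside -0.24). SKA3, a kinetochore protein across from MRPL57, went from 545.7 to 463.0 (-0.24, beside -0.25). HIRA, a histone chaperone across from MRPL40, went from 1381 to 1600 (0.21, beside -0.24). PPP1R10, a phosphatase subunit across from MRPS18B, went from 346.3 to 438.0 (0.34, beside -0.05). These neighbours were chosen after their values were seen.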

How the data were processed

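RNA of CL1-0 cells was measured on 2 arrays, 1 at 0 h and 1 at 6 h. The deposited table gives each probe set's intensity, not in logs, made by the authors with MAS5 per the submitters' processing notes. Version, parameters and scaling between arrays are not given in the sources used here.

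Gene names came from the annotation of the platform and were brought up to date by Entrez identifier with the RefSeq table (41037 of 41091 with 1 gene matched), which renamed 0 members. Values under 45.4 (the 50th percentile) were set to that floor and put on log2. The set with the highest mean log2 over both arrays stood for the gene, and 0 h was subtracted from 6 h. Sizes of 1.2-fold and 1.5-fold were counted. No test was possible, and the number of arrays limits the precision.

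Bacterial descent was taken from standard protein names. RefSeq gives such a name for 74 members, and 2 (MRPS18A and MRPS18B, relatives of bacterial S18) were placed otherwise. Members, lists and groups were chosen with earlier results of these data known. Genes to name were those past 1.2-fold, the 5 highest and lowest and the 5 brightest of each subunit, the 5 with the widest range of probe sets, and up to 4 of each list, besides MRPL12, MRPS16 and MRPL55. Others are said to be chosen after their values were seen, unless a region of the ribosome holds them. The steps were tested on simulated data. Python 3.11.15, numpy 2.4.6, pandas 2.3.3 and statsmodels 0.14.6 (loess, span 0.3) were used.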

Additional observations from a re-analysis of the deposited data

How the results depend on the processing

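No paired analysis was possible because each group has 1 array. The median of the members was below 0 in each setting tried. It was -0.14 after quantile normalization and -0.14 with a loess curve taken off, -0.055 without _x_at and _s_at sets (31 of 42 lower) and, added after the data were seen, -0.052 on the next brightest set of the 33 genes that have one (23 lower). The members lower by 1.2-fold numbered 12 under quantile normalization, 10 under loess, 2 without _x_at and _s_at sets, where 1 was higher, and 1 with the median of a gene's sets. The median of the large minus the small subunit was 0.014 with the median of a gene's sets. Without _x_at and _s_at sets the other sets lay 0.031 above the brightest (n = 9), and MRPS16 was at 0.084. Other floors, no floor with log2(value + 16), and centring moved none of these results beyond the scatter allowed, 0.16 (the SD among the sets of 1 gene, pooled over all genes), divided for a median by the square root of its number of genes. Under quantile normalization and loess the median of all genes was -0.013 and -0.007, against 0.017 as deposited. The 1 array at each time limits every value.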

Other observations

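The antisense RNA gene MRPL20-AS1, which matches the symbol rule but encodes no ribosomal protein, went from 476.4 to 430.7, a log2 difference of -0.15, and MRPL20 itself was at -0.12. Which strand the probes match was not checked. The pseudogene MRPL45P2 was at 6.33 and 6.44, below the floor at both times.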
